A study of Mus musculus with 12 samples.

Results

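The mRNAs described here encode p62 (Sqstm1) and 8 other selective autophagy receptors, Nbr1, Optn, Tax1bp1, Calcoco1, Tollip, Bnip3, Bnip3l and Fundc1. They were picked by gene symbol, and all 9 were found among the 55450 genes of the count table. Selective autophagy receptors hold a cargo with 1 part of the protein and the lipid-bound ATG8 proteins of the forming autophagosome with another, so that the cargo is taken into the vesicle and broken down in the lysosome. p62 and its relatives recognise ubiquitin on protein aggregates, damaged mitochondria or bacteria, whereas Bnip3, Bnip3l and Fundc1 sit in the outer mitochondrial membrane and mark the mitochondrion itself. p62 also binds vault RNA in human cells, which restrains its assembly, and it gathers into inclusion bodies in livers and neurons in which autophagy is blocked.

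Vaultrc5-/- mice, which lack a vault RNA gene, were set against wild-type mice in brain and in liver, all males 7 to 9 weeks old. Each of the 4 groups (wild-type brain, knockout brain, wild-type liver, knockout liver) has 3 libraries of total RNA depleted of ribosomal RNA. The sample titles call the control libraries flx while the genotype label reads wild-type, and they are called wild type here; no transgene or treatment is named for either genotype. The labels do not say whether libraries of 1 group came from separate litters, or whether brain and liver libraries with the same number came from 1 animal, so p-values measure the spread between these libraries.

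The brain libraries held 14844971 to 18567381 expected counts and the liver libraries 23247449 to 27155480. As a check of the labels, Vaultrc5 had 4, 1 and 4 counts in wild-type brain and 33, 39 and 48 in wild-type liver, and 0 in all 6 knockout libraries, where a count of 0 allows up to 3. Snap25, a neuronal synapse gene, had at least 31003 counts in each brain library and at most 3 in each liver library, and Alb, the serum albumin gene of hepatocytes, had at least 714287 in liver and at most 5 in brain. Knockout liver replicate 2 stood apart from the other livers: its 5 Kupffer cell markers (Clec4f, Vsig4, Cd5l, Marco and Timd4) summed to 254.7 CPM (counts scaled to a common library size) against 95.7 to 131.5 in the other 5. Spp1, which is on the cholangiocyte list, was at 102.5 CPM there against 18.6 to 27.6, while Krt19, Krt7 and Epcam of that list were within the range of the other livers. Without that library the log2 change of knockout over wild-type liver fell for Sox9, also on the list, from 0.08 to -0.23. It fell for Spp1 from 0.95 to -0.32, and rose for Krt19, Krt7 and Epcam. Knockout liver replicate 1 had 45.7 CPM of muscle markers, mostly Myh11, Acta2 and Tagln, against 9.24 to 17.0. Wild-type brain replicate 3 had 6862 CPM of 5 oligodendrocyte markers against 2005 to 3703 in the other 5 brains.

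All 9 genes were well counted, from 92 counts (Fundc1 in knockout liver replicate 3) to 8127 counts (Sqstm1 in wild-type liver replicate 2), and all 9 passed the low-count filter in every comparison. Coordinates are from GENCODE M21 on GRCm38 and each value is the sum over all exons, UTRs included. Sqstm1 lies at chr11:50199366-50210827, Nbr1 at chr11:101552149-101581951, Optn at chr2:5020642-5064051, Tax1bp1 at chr6:52713729-52766780 and Calcoco1 at chr15:102706777-102722178. Tollip lies at chr7:141874813-141918507, Bnip3 at chr7:138890836-138909519, Bnip3l at chr14:66985239-67008877 and Fundc1 at chrX:17556564-17572325. Nbr1 and Tax1bp1 are on the plus strand and the other 7 on the minus strand. Shared sequence bears on some counts. Sqstm1 shares 580 exon bases, 17.3% of its exon length, with Mrnip on the opposite strand, a gene with a mean of 139 counts, and whether counting used strand is not given in the sources used here. Bnip3l had fractional counts in 9 of 12 libraries and Bnip3 in 4 of 12, as happens where reads are split between near-identical copies; the Bnip3l pseudogene Bnip3l-ps received 0 to 13.45 counts per library.

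RefSeq start-site sequences (GRCm38.p6) were found for 8 of the 9 genes. The stretches just upstream of 3 genes are shown because the results below turn on them: Sqstm1 as the namesake receptor, Optn for the greatest difference between tissues among the 9 under TMM scaling, and Bnip3 for its spread between livers. All 3 are on the minus strand and are written 5′ to 3′, chr11:50210828-50211070 for Sqstm1, chr2:5064118-5064367 for Optn and chr7:138909520-138909756 for Bnip3. Capitals mark a CACGTG match.
Sqstm1: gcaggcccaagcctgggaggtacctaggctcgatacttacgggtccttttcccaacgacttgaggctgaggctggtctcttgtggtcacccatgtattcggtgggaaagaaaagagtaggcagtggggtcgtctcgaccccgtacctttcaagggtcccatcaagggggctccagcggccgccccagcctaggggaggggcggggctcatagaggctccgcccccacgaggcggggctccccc
Optn: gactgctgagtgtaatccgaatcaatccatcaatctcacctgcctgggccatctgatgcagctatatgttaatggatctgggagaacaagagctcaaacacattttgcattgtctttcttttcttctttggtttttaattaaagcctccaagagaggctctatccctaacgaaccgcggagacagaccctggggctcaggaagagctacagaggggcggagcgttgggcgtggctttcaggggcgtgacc
Bnip3: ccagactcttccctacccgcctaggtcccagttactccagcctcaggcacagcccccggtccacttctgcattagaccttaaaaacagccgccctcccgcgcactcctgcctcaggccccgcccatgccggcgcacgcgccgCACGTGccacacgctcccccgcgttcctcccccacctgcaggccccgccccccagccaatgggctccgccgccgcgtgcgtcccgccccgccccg
The 250 bases before each start were searched on both strands for 4 motifs. They were ACGTG (the core of the hypoxia response element, found in 16.6% of 32851 RefSeq promoters), CACGTG (the E-box read by TFEB, which contains ACGTG on both strands, 6.02%), TGACNNNGC (the antioxidant response element core read by NRF2, 10.2%) and GTAAACA (a FOXO site, 3.17%). Bnip3 had CACGTG from base -108, counted from its RefSeq start. That start lies inside the GENCODE gene, and the printed stretches of Bnip3 and Sqstm1 leave out the bases that are within it, so they are shorter than the window searched. A second start of Nbr1 had ACGTG from base -139, and a second start of Tax1bp1 had ACGTG from -155 and TGACNNNGC from -205. Neither Sqstm1 nor Optn had a match in this window. The Bnip3 stretch was 72.6% G or C, that of Sqstm1 64.2% and that of Optn 50%, against a median of 52.4% over all promoters.

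**Figure D1:**
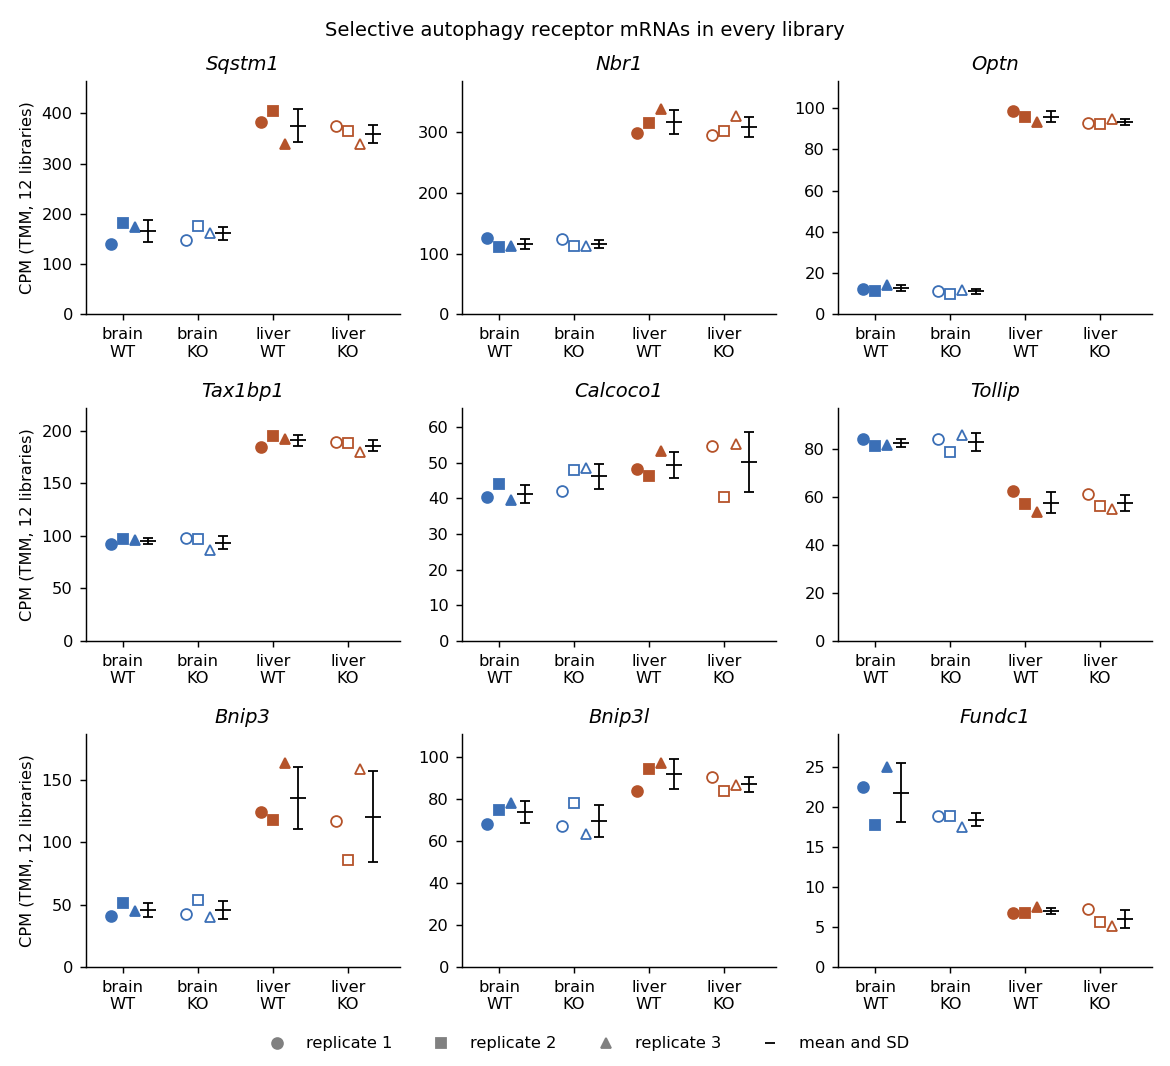
Level of each receptor mRNA in every library, in CPM scaled by TMM over all 12 libraries; filled symbols are wild type, open symbols knockout, and bars give the mean and SD of 3 libraries. Optn sits at 9.86 to 14.4 CPM in brain and 92.2 to 98.4 CPM in liver, and in no panel does knockout part from wild type within a tissue.

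The question put by the genotype comparison is whether loss of Vaultrc5 alters the mRNA of the receptor it is linked to, and of related receptors. In neither tissue did any of the 9 pass the test, and their levels in knockout and wild-type libraries overlapped. CPM in the following 7 paragraphs use TMM scaling within a tissue; changes are log2 of knockout over wild type from edgeR's quasi-likelihood test with Benjamini-Hochberg adjustment over all genes tested.

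Among the ubiquitin-binding receptors, Sqstm1 was at 189.5, 245.4 and 232.0 CPM in wild-type brain and 199.0, 233.9 and 218.0 CPM in knockout brain. The knockout libraries all lie inside the wild-type range. The log2 change was -0.045 (SE 0.130, adjusted p = 1.0), and its 95% interval of -0.35 to 0.27 covers levels from 0.782 to 1.20 times wild type. In liver Sqstm1 was at 286.0, 299.0 and 251.8 CPM in the wild type and 272.5, 275.6 and 257.4 CPM in the knockout, again inside the wild-type range. The change there was -0.055 (SE 0.102, 95% interval -0.29 to 0.18, adjusted p = 0.992), which covers 0.816 to 1.14 times wild type.

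Nbr1, the relative of p62 that also serves aggregates and peroxisomes, had 169.6, 149.9 and 150.9 CPM in wild-type brain and 166.6, 150.3 and 151.9 CPM in knockout brain. Its liver values were 222.8, 233.0 and 251.4 CPM in the wild type and 215.5, 228.5 and 247.8 CPM in the knockout. Replicate 1 was the highest in both brain groups and the lowest in both liver groups. The changes of -0.014 (SE 0.0931) in brain and -0.032 (SE 0.0993) in liver were smaller than their errors. In liver, where same-numbered libraries deviated together, Nbr1 was lower in the knockout in each of the 3 pairs, as were Tax1bp1 and Bnip3. For Tax1bp1 the replicate 1 livers were nearly level, with 137.8 CPM (wild type) against 137.7 CPM (knockout). How many of all genes were lower in every pair was not computed, so no common decrease is read from these orders. With the replicate number as a block the changes were -0.03 (SE 0.0895, adjusted p = 0.956) for Nbr1, -0.03 (SE 0.0842, adjusted p = 0.956) for Tax1bp1 and -0.19 (SE 0.102, adjusted p = 0.815) for Bnip3.

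Optn, a receptor of mitochondria and bacteria that is phosphorylated by TBK1, was at 16.6, 15.3 and 19.2 CPM in wild-type brain and 15.5, 13.2 and 16.2 CPM in knockout brain. The highest value was in wild-type brain replicate 3, the library with the high oligodendrocyte markers; the part of that library's make-up in the value was not tested. The change was -0.20 (SE 0.142, 95% interval -0.54 to 0.14, adjusted p = 1.0), and it was -0.092 without that library. In liver Optn was among the steadiest genes, at 73.5, 70.9 and 69.4 CPM in the wild type and 67.5, 69.7 and 71.9 CPM in the knockout. Its SD within liver groups of 0.0431 on the log2 scale was at percentile 2.52 of the 9616 genes with a mean of at least 5 CPM, and its change was -0.032 (SE 0.0721).

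Tax1bp1, which collects NBR1-bound aggregates and other ubiquitin-marked cargo, ranged from 123.4 to 130.9 CPM in wild-type and 116.0 to 130.4 CPM in knockout brain, and from 137.8 to 144.4 and 135.9 to 142.3 CPM in the livers. Tollip, an adaptor of endosomes and aggregates, ranged from 109.2 to 113.5 CPM in wild-type and 105.1 to 115.7 CPM in knockout brain, and from 39.9 to 46.5 and 41.6 to 44.7 CPM in the livers. Both were steady genes in which the genotypes overlapped. Tax1bp1 changed by -0.036 (SE 0.0883) in brain and -0.031 (SE 0.0789) in liver, and Tollip by -0.0020 (SE 0.0802) and 0.0050 (SE 0.0843), none past the threshold. Calcoco1, a receptor for endoplasmic reticulum and Golgi membranes, had the only positive estimate of the 9 in brain. It was at 54.2, 59.4 and 52.8 CPM in wild-type and 56.2, 64.2 and 65.2 CPM in knockout brain, a log2 difference of 0.15 (SE 0.0951, 95% interval -0.08 to 0.38, adjusted p = 1.0). In liver it was at 36.1, 34.2 and 39.7 CPM in the wild type and 40.0, 30.5 and 41.8 CPM in the knockout, with the low value in the knockout library that stands apart. The liver estimate of 0.030 (SE 0.129) became 0.16 without that library and was not past the threshold either way.

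Among the receptors of the mitochondrial membrane, Bnip3 was at 55.0, 69.6 and 60.3 CPM in wild-type and 57.7, 72.4 and 54.2 CPM in knockout brain, a difference of -0.014 (SE 0.145). Its liver values were the most spread of the 9, at 92.9, 87.5 and 121.6 CPM in the wild type and 85.3, 65.0 and 120.7 CPM in the knockout. Replicate 3 was highest in both genotypes and knockout replicate 2 was lowest. The liver estimate of -0.16 (SE 0.243, 95% interval -0.74 to 0.43, adjusted p = 0.992) allows 0.599 to 1.35 times wild type, the widest interval among the 9. This interval comes from the fit without the replicate number, and the SE of Bnip3 with that block, given above, was smaller. The estimate was 0.032 without knockout replicate 2 and 0.0012 without wild-type replicate 3, and at its lowest -0.42 with another library left out.

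Bnip3l (also called NIX), the receptor that clears mitochondria from maturing red cells, ranged from 91.5 to 104.7 CPM in wild-type and 85.4 to 104.6 CPM in knockout brain, with a log2 difference of -0.095 (SE 0.113). In liver it ranged from 62.5 to 72.4 and 63.3 to 66.1 CPM, with a difference of -0.07 (SE 0.0820). Fundc1, a mitophagy receptor that is switched by phosphorylation in hypoxia, was at 30.3, 24.0 and 33.6 CPM in wild-type and 25.4, 25.3 and 23.7 CPM in knockout brain. Its highest value was again in wild-type brain replicate 3. The differences were -0.25 (SE 0.143, 95% interval -0.59 to 0.09) in brain, -0.13 without that library, and -0.22 (SE 0.168, 95% interval -0.61 to 0.17) in liver, where Fundc1 was at 5.12, 5.00 and 5.60 CPM in the wild type and 5.36, 4.25 and 3.90 CPM in the knockout. The liver estimate was -0.36 without knockout replicate 1 and -0.13 without knockout replicate 3. Fundc1 had the smallest unadjusted p-value of the 9 in each tissue, 0.124 and 0.235, and the adjusted values were 1.0 and 0.992.

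**Figure D2:**
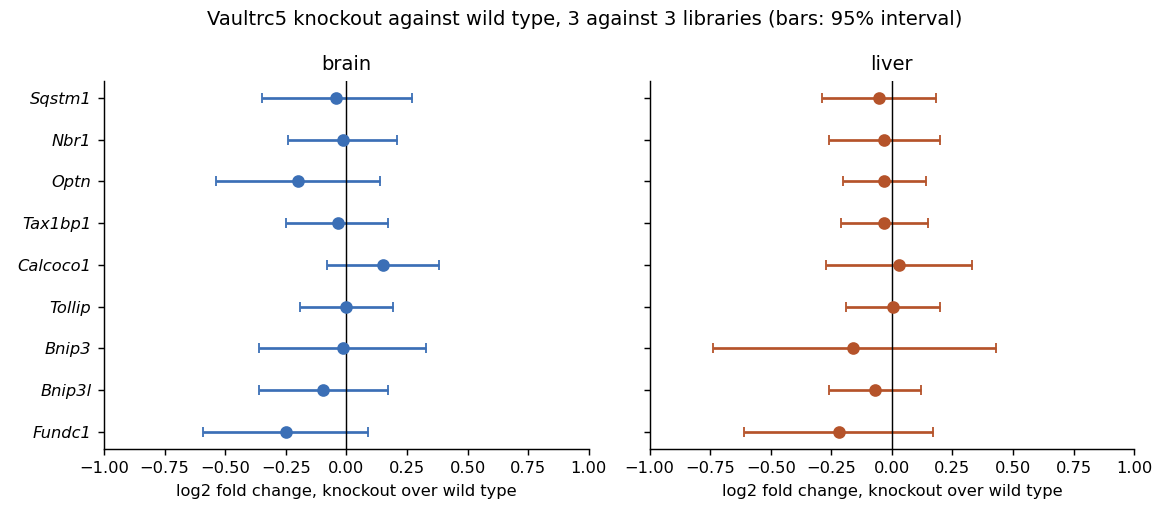
Log2 fold change of knockout over wild type for each receptor in brain (left) and liver (right), from 3 against 3 libraries; bars are 95% intervals. Every interval includes 0, and that of Bnip3 in liver is the widest, from -0.74 to 0.43.

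In sum over the list, 0 of 9 receptors passed an adjusted p of 0.05 in brain or liver, where 0.0% of 18075 and 0.0% of 15329 genes tested did. At an unadjusted p under 0.05 the count was 0 of 9 in both, against 0.675% of genes in brain and 3.50% in liver. Wild-type and knockout CPM ranges failed to overlap for 0 of 9 in either tissue, against 4.27% of genes in brain and 9.84% in liver. The median size of the log2 change was 0.04 for the receptors and 0.10 for all genes in brain, and 0.03 and 0.12 in liver. The medians of all genes include low-count genes that passed the filter, and none for genes at the receptors' levels was computed. With 3 libraries a group the test has limits: in liver Vaultrc5 itself, at 33 to 48 counts against 0, had an adjusted p of 0.333. Blocking on the replicate number gave 2 called genes in liver in place of 0, neither of them a receptor. The knockout effect in liver minus that in brain did not pass the test for any of the 9 (0.0% of 20141 genes did, and 2.43% had an unadjusted p under 0.05); the smallest unadjusted p was 0.334 for Optn, with a difference of 0.15 (SE 0.145) that was 0.072 without wild-type brain replicate 3 and 0.24 without knockout brain replicate 3. For Sqstm1 the difference was -0.030 (SE 0.169, 95% interval -0.40 to 0.34).

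The genes that work with the receptors were followed from 7 lists, and 0 of their members passed in brain, in liver or in the interaction. Of the 17 other receptors tested, the smallest unadjusted p was 0.103 in brain for Atl3, a reticulum receptor (log2 change -0.17, SE 0.0878), and 0.0957 in liver for the mitochondrial Fkbp8 (-0.16, SE 0.0823). Calcoco2 had at most 2 counts in any library and was not tested. Of the 5 ATG8 genes, Map1lc3a in brain (-0.11, SE 0.0978) and Gabarap in liver (0.13, SE 0.0764) had the smallest p-values. Pink1, the kinase that labels damaged mitochondria for Optn, had the smallest of 14 enzymes in both tissues, with -0.16 (SE 0.100) in brain and -0.20 (SE 0.0900) in liver. Keap1, the NRF2 repressor that p62 binds, had 41.0 ± 0.232 CPM in the livers of wild-type mice against 37.1 ± 0.833 in those of knockouts (SD, n = 3), a difference of -0.14 (SE 0.0680) that was not called. The NRF2 list, whose targets include Sqstm1, led with Gclm in brain (-0.16, SE 0.161) and Hmox1 in liver (0.49, SE 0.236), the HIF list with P4ha1 (0.24, SE 0.162) and Adm (0.68, SE 0.356), and the regulators with Mitf (-0.17, SE 0.147 and 0.27, SE 0.224). Without knockout liver replicate 2 the liver values were 0.27 (SE 0.220) for Hmox1 and 0.14 (SE 0.241) for Mitf. Markers of other cell types also had positive estimates in the liver comparison, with 0 called in each list. All 5 Kupffer cell markers did (median 0.68, and 0.13 without knockout replicate 2), as did all 5 red blood cell markers (0.95, and 0.77), all 5 microglia markers (0.42, and 0.04) and the 3 muscle markers tested (1.11, and 1.53). All 5 endothelial and all 5 cholangiocyte markers were positive too, with medians of 0.15 and 0.30; without knockout replicate 2 these were 0.12, with 4 of 5 positive, and 0.33, with 3 of 5 positive. In brain all 5 oligodendrocyte markers had negative estimates (median -0.57), but without wild-type brain replicate 3 all 5 were positive (median 0.05). Astrocyte markers in brain were negative in 4 of 5 (median -0.22, and -0.08 without that library) and the 4 muscle markers tested were positive (0.36, and 0.29). Choroid plexus markers, which summed to 4.68 to 70.9 CPM over the brains, were negative in 4 of 5 (median -0.20) and positive in 5 of 5 without that library (median 0.52). Their part in the values of Hmox1 and the receptors was not tested.

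Brain and liver differed far more than the genotypes did. On the TMM scale over both tissues, 8 of 9 receptors passed in the wild type and the same 8 passed in the knockout, in the same directions: Tollip and Fundc1 were higher in brain, and Sqstm1, Nbr1, Optn, Tax1bp1, Bnip3 and Bnip3l were higher in liver. A count of 8 of 9 is close to the background, since 78.6% of genes passed in the wild type (43.9% higher in brain, 34.7% higher in liver) and 78.7% in the knockout (43.5% and 35.2%). Ranges did not overlap for 9 of 9 receptors in the wild type and 8 of 9 in the knockout, against 82.4% of genes in each. At an unadjusted p under 0.05 the counts were 9 and 8, against 79.8% and 80.0% of genes. In bulk tissue fewer cells of a type and less RNA per cell cannot be told apart.

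Direction between such different tissues depends on the scaling, so each value was also computed with library totals. That moved the median of all genes from 0.21 to 1.05 (log2 of brain over liver) in the wild type and from 0.21 to 1.08 in the knockout, and the share of called genes higher in brain from 55.8% to 74.4% and from 55.3% to 75.1%. With library totals 4 receptors were higher in brain and 4 higher in liver in the wild type, where 82.9% of genes passed (61.7% higher in brain, 21.2% higher in liver), and 4 and 3 in the knockout, where 82.7% passed (62.1% and 20.6%). The values relative to the median gene differed by at most 0.01 between the scalings and are given for each receptor from the TMM fit.

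Optn differed most among the 9 with TMM; with library totals Fundc1 differed more. On the 12-library scale it was at 12.7 ± 1.53 CPM in wild-type brain and 95.9 ± 2.47 CPM in wild-type liver (SD, n = 3), and at 11.2 ± 1.14 and 93.3 ± 1.43 CPM in the knockout. Brain over liver was -2.91 (SE 0.120, adjusted p = 3.76e-07) in the wild type and -3.08 (SE 0.113, adjusted p = 3.48e-07) in the knockout, so that brain held 0.133 and 0.119 of the liver level. Relative to the median gene it was -3.12 and -3.28, and with library totals it was still -2.07 and -2.20.

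Sqstm1 was at 165.5 ± 21.9 CPM in wild-type brain and 375.4 ± 33.3 CPM in wild-type liver, and Nbr1 at 116.7 ± 8.10 and 317.2 ± 20.0 CPM (SD, n = 3). For Sqstm1 the log2 difference was -1.18 (SE 0.138, adjusted p = 0.000112) in the wild type and -1.17 (SE 0.111, adjusted p = 4.19e-05) in the knockout. It shrank to -0.34 and -0.29 with library totals, where it still passed, at adjusted p-values of 0.0397 in each. Nbr1 gave -1.44 (SE 0.108) and -1.42 (SE 0.107), and -0.60 and -0.54 with library totals. Tax1bp1, at 94.9 ± 2.89 CPM in wild-type brain and 190.7 ± 5.53 CPM in wild-type liver, gave -1.0 (SE 0.0916) and -1.01 (SE 0.0993), but -0.16 and -0.13 with library totals, which did not pass. Relative to the median gene, all 3 were on the liver side, at -1.39, -1.65 and -1.21 in the wild type.

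Fundc1 and Tollip stood on the brain side under both scalings. Fundc1 was at 21.8 ± 3.68 CPM in wild-type brain and 7.05 ± 0.421 CPM in wild-type liver, a log2 difference of 1.63 (SE 0.161, adjusted p = 4.24e-05), and of 1.60 (SE 0.164) in the knockout. Tollip was at 82.4 ± 1.72 and 57.7 ± 4.38 CPM, a difference of 0.52 (SE 0.0984, adjusted p = 0.00160), and of 0.51 (SE 0.0946) in the knockout. With library totals the differences were 2.47 and 2.48 for Fundc1 and 1.36 and 1.39 for Tollip. Relative to the median gene they were 1.42 and 1.39 for Fundc1 and 0.31 in both genotypes for Tollip.

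The paired mitochondrial receptors Bnip3 and Bnip3l parted between the tissues. Bnip3 was at 45.9 ± 5.49 CPM in wild-type brain and 135.4 ± 24.6 CPM in wild-type liver, a difference of -1.55 (SE 0.159, adjusted p = 5.15e-05), and of -1.41 (SE 0.234) in the knockout; with library totals it was -0.72 and -0.55, and the second did not pass (adjusted p = 0.0753). Relative to the median gene Bnip3 was at -1.77 and -1.62. Bnip3l was at 73.7 ± 5.21 and 91.9 ± 7.18 CPM, a difference of -0.31 (SE 0.107, adjusted p = 0.0277), and of -0.34 (SE 0.109, adjusted p = 0.0228) in the knockout. With library totals Bnip3l turned to 0.53 and 0.54, both past the threshold, so its direction rests on the scaling; relative to the median gene it was on the liver side, at -0.52 and -0.54. Its TMM call was also lost without wild-type brain replicate 1, wild-type liver replicate 2 or replicate 3 (-0.27, -0.31 and -0.28), and without knockout brain replicate 1 or 3 or knockout liver replicate 1 (-0.30, -0.28 and -0.33). Calcoco1 was the receptor that did not pass, at 41.3 ± 2.52 and 49.3 ± 3.65 CPM in wild-type brain and liver (-0.25, SE 0.103, adjusted p = 0.0535) and -0.13 (SE 0.143) in the knockout. It reached the threshold without wild-type brain replicate 2 (-0.37) or knockout liver replicate 2 (-0.29), and with library totals it turned to 0.59 and 0.74. Relative to the median gene it was at -0.46 and -0.34.

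**Figure D3:**
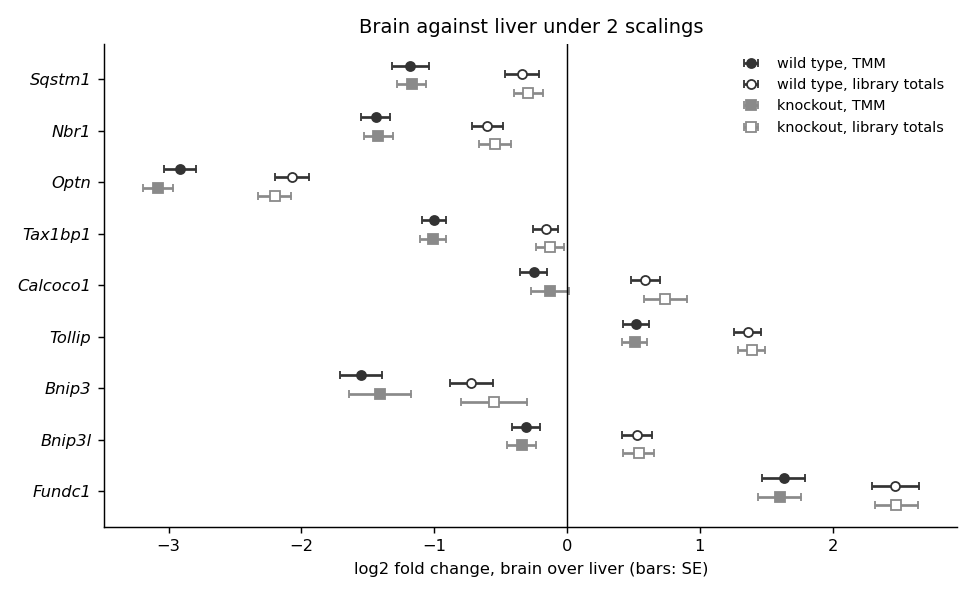
Log2 fold change of brain over liver for each receptor with TMM scaling (filled) and library totals (open), in wild type (circles) and knockout (squares); bars are the SE. Fundc1 and Tollip lie right of 0 and Sqstm1, Nbr1, Optn, Tax1bp1 and Bnip3 left of 0 under both scalings, while Calcoco1 and Bnip3l cross 0.

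Ratios between receptors in 1 library do not depend on the scaling. The count ratio of Bnip3 to Bnip3l was 0.576 to 0.692 in the 6 brains and 1.03 to 1.84 in the 6 livers. That of Optn to Sqstm1 was 0.0563 to 0.0875 in brain and 0.237 to 0.280 in liver, and that of Optn to Tax1bp1 0.102 to 0.150 and 0.486 to 0.533. None of these 3 ranges overlapped between tissues, whereas Nbr1 to Sqstm1 did overlap, at 0.611 to 0.895 in brain and 0.779 to 0.998 in liver. The pairs were picked, Optn to Sqstm1 and Optn to Tax1bp1 share Optn, and the share for all pairs of genes was not computed. For single genes, CPM ranges of the tissues did not overlap for 82.4% in the wild type and 82.4% in the knockout.

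Levels of different genes were compared per kb of exon (CPM per kb). Sqstm1 was the most abundant of the 9 in both tissues, at 48.8 ± 4.84 CPM per kb in brain and 109.5 ± 7.58 in liver (SD over 6 libraries of both genotypes), and it overlapped no other receptor. In brain it was followed by Bnip3 at 20.3, Bnip3l at 18.6, Nbr1 at 17.0 and Tollip at 16.3, neighbours whose ranges overlapped. Below a gap came Tax1bp1 at 9.42, Fundc1 at 8.56 and Calcoco1 at 7.63, again overlapping in turn, and Optn was lowest at 3.18, apart from Calcoco1. In liver the order was Bnip3 at 56.6 and Nbr1 at 45.5, which overlapped, then Optn at 25.2 and Bnip3l at 23.2, which overlapped, then Tax1bp1 at 18.8, Tollip at 11.4, Calcoco1 at 8.68 and Fundc1 at 2.78, each apart from the next. Optn thus had rank 9 in brain and rank 4 in liver, and Fundc1 had rank 7 and rank 9.

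As a share of the summed CPM per kb of the 9, Sqstm1 took 32.5% ± 1.90 in brain and 36.4% ± 3.10 in liver (SD, n = 6). Optn took 2.13% ± 0.285 and 8.37% ± 0.352, Tollip 10.9% ± 0.872 and 3.78% ± 0.312, and Fundc1 5.73% ± 0.873 and 0.922% ± 0.122. The share of Tax1bp1 was alike in both, at 6.30% ± 0.283 and 6.25% ± 0.330. Bnip3l fell on the brain side by share, 12.4% ± 0.581 against 7.69% ± 0.353, and so did Calcoco1, 5.10% ± 0.487 against 2.87% ± 0.273. Nbr1 took 11.4% ± 1.15 and 15.1% ± 0.664, and Bnip3 13.5% ± 1.14 and 18.6% ± 3.62.

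**Figure D4:**
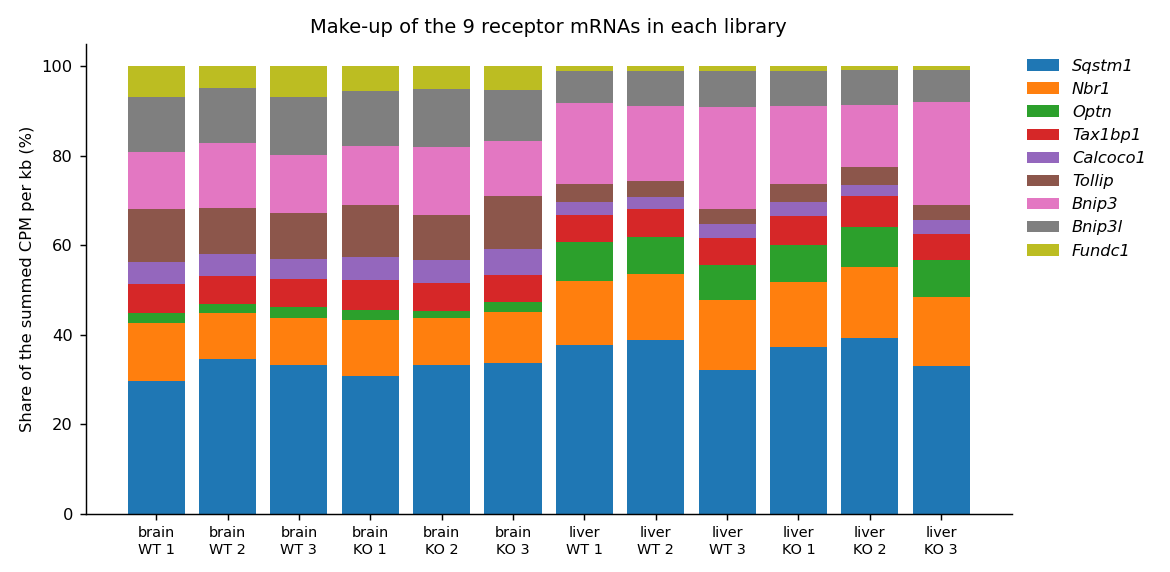
Share of each receptor in the summed CPM per kb of exon of the 9 genes, 1 bar per library. Optn widens from 1.67% to 2.47% in brain to 7.91% to 8.89% in liver, and Fundc1 and Tollip narrow, in both genotypes.

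The other genes of the pathway also differed between tissues, with directions that in part rest on the scaling. The counts of each list stand beside 78.6% of all genes called with TMM and 82.9% with library totals in the wild type, and most are near those shares. Of 17 other receptors, 3 were higher in brain and 12 higher in liver with TMM in the wild type, and 6 and 8 with library totals. Those higher in brain included the Fundc1 relative Fundc2 (1.85, SE 0.128) and the reticulum receptor Rtn3 (2.50, SE 0.174), and those higher in liver the reticulum receptor Atl3 (-2.54, SE 0.0987) and the mitochondrial inner membrane protein Phb2 (-2.47, SE 0.105); these 4 kept their direction with library totals, as they did in the knockout. Fundc1 and Fundc2 were thus both on the brain side, with a count ratio of 0.710 to 1.04 in brain and 0.719 to 1.24 in liver. Of the 5 ATG8 genes, Map1lc3a was higher in brain (1.25, SE 0.117) and Gabarap higher in liver (-1.71, SE 0.0899) under both scalings, and Gabarapl2 was higher in brain (0.29, SE 0.107) and stayed so with library totals (1.13), while Gabarapl1 went from -0.69 to 0.15. Map1lc3b was not called with TMM (-0.27) and was at 0.57 with library totals; in the knockout it was called at -0.34 (SE 0.118) with TMM.

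Among 14 enzymes, 3 were higher in brain and 7 higher in liver with TMM in the wild type (8 and 4 with library totals). The Fundc1 kinase Src was at 65.7 ± 8.89 CPM in brain and 4.27 ± 0.907 CPM in liver (SD, n = 3), and the Fundc1 phosphatase Pgam5 was also higher in brain (0.46, SE 0.123). Ikbke, a relative of TBK1, was higher in liver (-4.59, SE 0.266), as was March5, a ubiquitin ligase for Fundc1 (-1.34, SE 0.101). Of 10 p62 partners 3 and 5 were called (5 and 1 with library totals): Prkcz, an atypical protein kinase C, at 2.54 (SE 0.108), the deubiquitinase Cyld at 1.47 (SE 0.117), Tnfrsf1a, a TNF receptor, at -4.26 (SE 0.149), and the ubiquitin-conjugating enzyme Ube2d3 at -0.98 (SE 0.0962), which shrank to -0.14 with library totals. Of 9 NRF2 genes 1 and 7 were called (2 and 6 with library totals), among them Nfe2l2, which encodes NRF2, at -3.54 (SE 0.185) and Gclc of glutathione synthesis at -3.95 (SE 0.120), while the cystine transporter Slc7a11 was at 53.0 ± 8.13 CPM in brain and 0.0846 ± 0.0766 CPM in liver. Of 11 HIF genes 5 and 4 were called (7 and 3), with Slc2a1 at 1.92 (SE 0.292), Egln1 at 0.83 (SE 0.0988), Vegfa at -2.10 (SE 0.108) and Epas1 at -1.44 (SE 0.117). In the knockout 2 and 4 of 12 HIF genes were called (6 and 3 with library totals), where 78.7% of all genes were called with TMM. Of 6 TFEB and FOXO regulators 0 and 3 were called (3 and 2), with Foxo1 at -1.82 (SE 0.156) and Foxo4 at -1.28 (SE 0.140).

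In each tissue 7 of 9 receptors varied more with the replicate number in the titles than with genotype, against 86.9% of genes with a mean of at least 5 CPM in brain and 77.0% in liver, so the count is no higher than the background in brain and near it in liver. Number has 2 degrees of freedom and genotype 1, which favours number. The exceptions were Calcoco1 (32.5% of the sum of squares by number, 46.2% by genotype) and Fundc1 (21.6% and 37.2%) in brain, and Optn (0.662% and 17.2%) and Fundc1 (19.7% and 38.5%) in liver. Replicate number accounted for 91.5% of the sum of squares of log2 CPM over the 6 brains for Sqstm1 and genotype for 1.23%; for Nbr1 in brain the shares were 98.9% and 0.0639%. The median over the 9 was 59.8% by number in brain, against 66.8% for all genes with a mean of at least 5 CPM, and 76.9% in liver, against 50.3%. The median by genotype was 5.48% in brain, against 5.81%, and 9.51% in liver, against 11.9%. Sqstm1 and Nbr1 moved against each other, with a Pearson r of -0.95 over 6 brains and -0.62 over 6 livers. Replicate 1 of both genotypes had the lowest Sqstm1 and the highest Nbr1 in brain. The summed level of the 5 neuron markers, most of it from Snap25 and Syt1, was lowest in replicate 1 and highest in replicate 2 of each genotype, at 3772 and 5118 CPM in the wild type and 4160 and 4819 CPM in the knockout. Stmn2 and Rbfox3 of that list did not follow this order, with Stmn2 highest in replicate 1 of each genotype. Snap25 did not follow it in the knockout, where it was lowest in replicate 3, at 2047, 2157 and 1951 CPM. The summed astrocyte markers (3790, 5325 and 4589 CPM in the wild type, 3726, 5106 and 4610 in the knockout) and microglia markers (117.7, 191.1 and 162.2, and 131.5, 186.4 and 160.5 CPM) had the same order as Sqstm1. All 5 microglia markers kept that order, whereas the astrocyte sum is mostly Slc1a2, and Aqp4 was lowest in replicate 2 of each genotype, as were Gja1 and Gfap in the wild type. The part of these markers was not tested. In brain Tollip ran against Bnip3 (r -0.92) and Bnip3l (r -0.93).

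The genes most like Sqstm1 over the 12 libraries, by Pearson r of log2(CPM + 0.5) centred in each tissue among 6212 genes with a mean of at least 10 CPM in both tissues, were Ptprf (0.948), Arhgap35 (0.932), Cops6 (0.904), Actr2 (0.899) and Atxn7l3 (0.897). Nbr1 ranked 6022 of 6212, at -0.791, and of the receptors Bnip3l ranked highest, at 1266 (0.406). These points share libraries, replicate numbers and scaling, and are not independent.

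Bnip3 in liver had the widest spread of the receptor values over all 6 livers. Its SD within groups of 0.362 on the log2 scale was at percentile 90.5 of 9616 genes, with the highest library 1.87 times the lowest, against 1.06 to 1.43 times for the other 8. Without knockout replicate 2 it was 1.425 times, no wider than Fundc1 (1.434), so its place among the 9 rests on that library. Of its spread over the 6 livers 82.9% followed the replicate number and 9.04% genotype. The genes below were chosen after their values were seen, from the lists above. Pdk1, a HIF target that holds back mitochondrial pyruvate use, was at 82.5, 59.5 and 86.6 CPM in wild-type and 62.5, 35.4 and 107.5 CPM in knockout liver. Egln3, an oxygen sensor induced by HIF, was at 17.4, 14.4 and 19.2 CPM and 15.8, 10.7 and 18.8 CPM. Foxo3, a regulator of Bnip3 in muscle, was at 93.6, 95.01 and 111.0 CPM and 77.9, 75.1 and 124.6 CPM. Each was highest in replicate 3 and lowest in knockout replicate 2, as Bnip3 was. The Pearson r with Bnip3 over the 6 livers was 0.94 for Pdk1, 0.94 for Egln3, 0.92 for Foxo3, 0.88 for the reticulum receptor Retreg1 and 0.85 for Calcoco1. Over the 5 livers without knockout replicate 2 the values were 0.87, 0.89, 0.91, 0.79 and 0.63. Rb1cc1, a subunit of the ULK1 complex, was at 0.95 (0.97 without that library) and Atl3 at 0.91 (0.79). Of the 17 other receptors, the list that holds Retreg1 and Atl3, 11 had a positive r (median 0.54, and 10 with a median of 0.32 without that library), with Retreg3 at -0.57 and Wdfy3 at -0.55. The list that holds Foxo3 did not move as a whole: 3 of its 6 genes had a positive r (median -0.08), with Foxo1 at 0.87 and Mitf at -0.95.

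Of 11 HIF genes 8 had a positive r with Bnip3 in liver (median 0.56), against 52.0% of 9613 genes (median 0.05), and Slc2a1 was opposite at -0.86. Hepatocyte markers had a median of 0.58, with 5 of 6 positive and Alb at 0.96. All 5 Kupffer cell markers were opposite (median -0.82). Without knockout replicate 2 the HIF genes had 7 of 11 positive (median 0.46), against 50.3% of 9602 genes (median 0.01), the hepatocyte markers a median of 0.41 and the Kupffer cell markers a median of -0.49. Clec4f was at 38.7, 52.4 and 45.8 CPM in wild-type and 52.6, 96.3 and 47.7 CPM in knockout liver. Most hepatocyte markers thus ran with Bnip3 and the Kupffer cell markers against it, less so without knockout replicate 2. Cell proportions were not measured, and the part of cell make-up and of that library in the spread of Bnip3 was not tested.

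**Figure D5:**
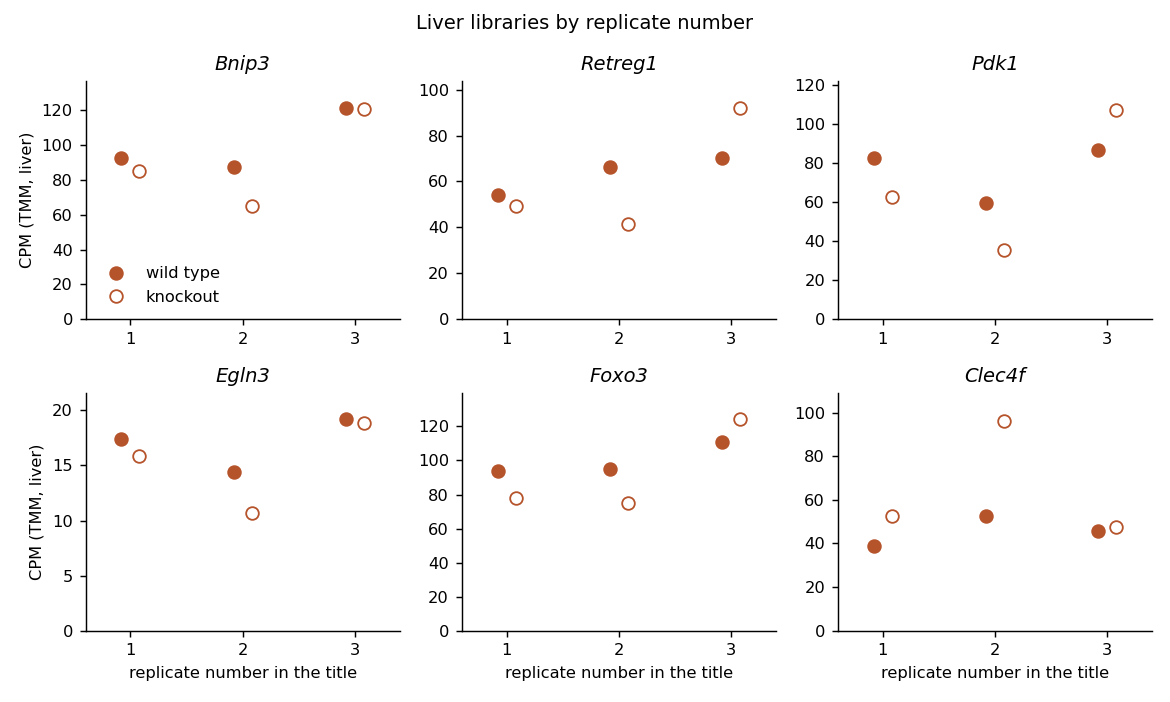
CPM (TMM within liver) of Bnip3, Retreg1, Pdk1, Egln3, Foxo3 and the Kupffer cell marker Clec4f in the 6 livers, by the replicate number in the title; filled is wild type, open is knockout. Knockout replicate 2 is lowest for the first 5 genes and highest for Clec4f, at 96.3 CPM.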

How the data were processed

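Total RNA of brain and liver was sequenced from stranded libraries, per the labels' protocols; the submitters' processing notes name cutadapt, STAR and the mm10 build. The values are expected counts of reads for each gene, deposited without normalization; the counting tool and its strand setting are not given in the sources used here, and 5.06% to 5.71% of values per library were not whole. All 55450 identifiers matched GENCODE M21. Counts were rounded and tested with edgeR 4.0.16 (R 4.3.3) by the quasi-likelihood F-test, with TMM, filterByExpr (minimum count 10, minimum total 15), robust estimation and Benjamini-Hochberg adjustment at 0.05. The SE is the absolute log2 fold change over the square root of F. Each comparison was fitted on its own libraries, and the interaction on all 12. The fitting code was also run on simulated counts. These held neither the replicate-number pattern nor the many tissue differences of the data, and no outcome is used here.

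The members and lists were chosen with earlier results of these data known. Genes named are the 9 receptors, Vaultrc5, Snap25, Alb, the companions with the smallest p-values in each list (up to 2 per direction where called, otherwise 1) and the 5 genes most like Sqstm1 over the 12 libraries. Calcoco2, Map1lc3b in the wild type, single marker genes and the liver genes set beside Bnip3 fall outside this rule and were chosen after their values were seen; some companions that the rule gives for the interaction and for the knockout tissues are left out of the text. Same-numbered wild-type and knockout livers deviated together (correlations 0.375, 0.416 and 0.492 over 12358 genes), so the numbers pair these libraries by the data, although the labels do not say what a number marks. Alternatives were DESeq2 1.42.0 size factors and Wald test, library totals, other low-count filters, robust estimation off, all 12 libraries in 1 fit, the replicate block and each library left out; the liver values without knockout replicate 2 for genes other than the receptors and brain marker values without wild-type replicate 3 were added after the data were seen. Promoter and motif searches used RefSeq sequences. Intervals cover counting error and the spread between these libraries only, and come from the fits without the replicate block.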

Additional observations from a re-analysis of the deposited data

How the results depend on the processing

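Of the receptor calls, 0 of 9 for knockout against wild type and for the interaction held under all alternatives run. Over all genes, liver gave 0 calls with edgeR, 10 with the DESeq2 Wald test (6 higher, 4 lower in the knockout), 4 with no filter beyond 1 count, 2 with the replicate block and 0 to 1 when each library was left out (1 without wild-type liver replicate 2); the interaction gave 0, and 1 with the DESeq2 Wald test and 2 with the replicate block; brain gave 0 under every alternative run. Between tissues 7 to 9 receptors were called under the alternatives. With library totals Calcoco1 (0.59 in wild type, 0.74 in knockout) and Bnip3l (0.53 and 0.54) turned to the brain side. The cause was not tested. Chosen after seeing the data, leaving out knockout liver replicate 2 moved the Hmox1 estimate from 0.49 to 0.27, the Kupffer cell marker median from 0.68 to 0.13 and the ratio of highest to lowest liver Bnip3 from 1.87 to 1.425; leaving out wild-type brain replicate 3 turned the oligodendrocyte marker median from -0.57 to 0.05.

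Estimates near 0 changed sign without being called. For knockout against wild type, with all 12 libraries in 1 fit Tollip was 0.0098 in brain and -0.0021 in liver; with library totals Calcoco1 was -0.0070 and Tollip -0.036 in liver; with no filter Tollip was -0.0035 in liver. For the interaction, with DESeq2 size factors Tax1bp1 was 0.0082 and Tollip 0.0090, and with the DESeq2 Wald test 0.0081 and 0.010; with library totals Bnip3l was -0.013 and Fundc1 -0.00035; with no filter Bnip3l was -0.0030; with the replicate block Fundc1 was -0.0067. Leaving out each library gave these ranges in brain: Sqstm1 -0.15 to 0.033, Nbr1 -0.061 to 0.041, Tax1bp1 -0.066 to 0.020, Tollip -0.027 to 0.046 and Bnip3 -0.14 to 0.083. In liver they were Nbr1 -0.088 to 0.016, Calcoco1 -0.058 to 0.16, Tollip -0.046 to 0.067 and Bnip3 -0.42 to 0.032. For the interaction they were Sqstm1 -0.10 to 0.12, Nbr1 -0.085 to 0.014, Tax1bp1 -0.039 to 0.058, Tollip -0.062 to 0.046, Bnip3 -0.41 to 0.028, Bnip3l -0.059 to 0.14 and Fundc1 -0.15 to 0.14. A group left with 2 libraries was assumed to vary like the other.

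Same-numbered wild-type and knockout brains had correlations of 0.732, 0.648 and -0.022, and brain and liver of 1 number 0.007 to 0.054. Not every one of these pairs reached 0.1, and they were not treated as paired. Same-numbered livers did deviate together, as given above, but the main liver fit left the number out and it entered only as the replicate block. The replicate block changed no receptor call. Replicates 1 and 2 of each genotype correlated best with their own number in brain, replicate 3 did not.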
